A study of Mus musculus with 12 samples.

Results

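The genes described here mark motor neurons and other cholinergic cells of the mouse spinal cord. They are 6 genes chosen by name, namely Ache, Slc5a7, Slc18a3, Chat, Isl1 and Calca. Each gene was read from a probe annotated to it alone, and from the probe of highest mean signal over the 12 arrays where it had more than 1. Of the 6 genes, 5 had such a probe, among 18194 genes with a probe of their own on the array. Isl1 had 2 probes and the other 4 had 1 each. Calca, which encodes calcitonin and the neuropeptide alpha-CGRP, had no probe of its own in the annotation used and was not analysed here.

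Acetylcholine is the transmitter by which spinal motor neurons drive muscle, and at thoracic levels it is also made by the preganglionic neurons of the sympathetic system. CHAT makes it from choline and acetyl-CoA, the transporter encoded by Slc18a3 (VAChT) loads it into vesicles, acetylcholinesterase (ACHE) breaks it down in the synaptic cleft, and the transporter encoded by Slc5a7 (CHT1) brings the freed choline back into the terminal. Isl1 encodes a LIM homeodomain factor that specifies motor neurons in the embryo and is also found in sensory neurons.

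Gene expression was measured in thoracic spinal cord (Th9) of female C57BL/6 mice, in 4 groups of 3. The aged injured mice (15 to 18 months old) and the young injured mice (2 to 3 months old) were sampled 9 days after a contusion spinal cord injury (SCI), and the aged intact and young intact mice of the same ages were naive. The intact mice had no sham operation in the descriptions used here, so operation and contusion cannot be told apart. All mice were perfused with heparinized saline, and 1 Affymetrix Mouse Genome 430 2.0 array was run per mouse.

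The values are MAS 5.0 signals, linear probe intensities that are scaled so that arrays can be compared. A signal of 50 was the cutoff of the study, and 35.0% to 36.7% of the probes exceeded it on each array. For the tests, log2 signals of the 10511 genes with a mean above 50 in at least 1 group were fitted with limma, and calls were made where p, adjusted over all of these genes (Benjamini-Hochberg), was under 0.05. Among the 5 genes with a probe, only Ache passed the cutoff, and it did so through its intact groups alone. For the other 4, a fit over all 18194 genes with no cutoff is given as an alternative, whose combination with the other alternatives was chosen after the data were seen. No fold of their means is given, since signals this low fix it poorly, and their log2 differences are given mostly as intervals or ranges. One array stood apart. The summed signal of 18 pan-neuronal genes was at 9.67% of the aged intact mean in aged injured replicate 1. It was at 34.1% in replicate 3 and 49.3% in replicate 2 of that group. Aged results are also given without aged injured replicate 1 where stated.

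Slc18a3 lies within the span of Chat, in the gene unit known as the cholinergic locus, and both genes are on the minus strand. The 250 bases before the start of Chat and of Slc18a3 are shown because these neighbours were measured separately on the array. Those of Slc5a7 and Ache are shown beside them because their signals were low in the injured cords. The letters are those of RefSeq on GRCm38.p6, 5′ to 3′ on the strand of the gene, with capitals for the GC box (GGGCGG or CCGCCC) and the CRE half-site (TGACG or CGTCA).
Chat, chr14:32465910-32466159, minus strand: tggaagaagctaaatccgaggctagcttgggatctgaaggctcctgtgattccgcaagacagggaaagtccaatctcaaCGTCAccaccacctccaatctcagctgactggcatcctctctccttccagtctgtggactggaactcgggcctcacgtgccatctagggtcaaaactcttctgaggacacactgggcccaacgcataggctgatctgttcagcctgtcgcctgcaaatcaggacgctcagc
Slc18a3, chr14:32464851-32465100, minus strand: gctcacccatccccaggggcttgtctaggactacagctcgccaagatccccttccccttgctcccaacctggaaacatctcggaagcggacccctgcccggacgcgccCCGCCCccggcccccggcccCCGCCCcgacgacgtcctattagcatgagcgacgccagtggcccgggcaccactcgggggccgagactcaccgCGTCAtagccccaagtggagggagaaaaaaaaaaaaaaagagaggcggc
Slc5a7, chr17:54299035-54299284, minus strand: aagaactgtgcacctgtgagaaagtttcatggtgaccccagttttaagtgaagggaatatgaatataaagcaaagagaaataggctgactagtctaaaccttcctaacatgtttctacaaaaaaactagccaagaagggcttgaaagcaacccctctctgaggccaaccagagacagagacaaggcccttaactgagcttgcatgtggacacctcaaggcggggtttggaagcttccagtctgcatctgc
Ache, chr5:137288004-137288253, plus strand: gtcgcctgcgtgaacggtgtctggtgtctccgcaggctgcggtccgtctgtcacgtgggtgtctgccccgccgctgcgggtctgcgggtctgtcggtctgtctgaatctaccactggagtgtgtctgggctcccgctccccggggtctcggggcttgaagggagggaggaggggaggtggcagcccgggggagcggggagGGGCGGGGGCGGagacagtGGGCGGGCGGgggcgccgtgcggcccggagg
Searched on both strands and with overlaps counted, the window of Ache held 4 GC boxes, that of Slc18a3 held 2, and those of Chat and Slc5a7 held 0. Chat and Slc18a3 each held 1 CRE half-site. The windows of Isl1 and Calca, not printed here, held 0 GC boxes each and 2 and 1 CRE half-sites. Of 32851 promoter windows of this length, 32.7% held a GC box and 17.8% a CRE half-site, so neither motif is rare. All 6 genes had a window in the table, and their GC content was 45.6% in Slc5a7, 48.0% in Calca, 54.8% in Chat, 66.0% in Slc18a3, 71.2% in Isl1 and 73.6% in Ache, beside a median of 52.4% over all windows.

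Ache was lower after SCI at both ages. In aged injured cords its signal was 10.4, 34.1 and 33.4 in replicates 1, 2 and 3, against 91.0, 88.1 and 105.7 in aged intact cords. In young injured cords it was 29.8, 55.5 and 33.2, against 102.0, 105.8 and 109.6 in young intact cords. Every injured array lay below every intact array, and young injured replicate 2 was the only injured array above 50. The means were 26.0 ± 13.5 in aged injured and 94.9 ± 9.44 in aged intact cords (SD, n = 3 each), which is at least 1.90-fold lower with the injured mean set to 50. The fitted log2 fold change was -2.05 (95% confidence interval -2.92 to -1.18, adjusted p = 6.72e-04 from limma), and 5.07% of the genes tested had a lower value. In young mice the means were 39.5 ± 14.0 in injured and 106 ± 3.80 in intact cords (SD, n = 3 each), at least 2.12-fold lower, with a log2 fold change of -1.48 (95% confidence interval -2.35 to -0.61, adjusted p = 0.00672) and 5.25% of the genes below it. Calls were frequent in these comparisons, with 39.9% of all genes tested called lower and 35.6% called higher in aged mice, and 34.1% called lower and 33.9% called higher in young mice. A whole segment was measured. The number of cells with Ache RNA, their share of the segment and the RNA per cell therefore cannot be told apart. Both calls held with each of the 12 arrays left out in turn. Without aged injured replicate 1 the log2 fold change in aged mice was -1.49 (adjusted p = 5.38e-05).

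The difference in Ache between aged and young injured cords did not pass the test. The aged injured signals overlapped the young injured ones, and the log2 fold change was -0.74 with a 95% confidence interval of -1.61 to 0.13 (adjusted p = 0.227 from limma), in a comparison in which 8.99% of all genes tested were called. It was -0.17 (adjusted p = 0.710) without aged injured replicate 1. Aged intact cords differed from young intact cords by -0.16 (95% confidence interval -1.03 to 0.71, adjusted p = 0.995), and here 0.809% of the genes were called. The injury effect in aged mice minus that in young mice was -0.58 (95% confidence interval -1.81 to 0.65, adjusted p = 0.597), with 0.438% of genes called. Without aged injured replicate 1 that value was -0.011 (adjusted p = 0.992). That array has the lowest Ache signal of its group (10.4, against 34.1 and 33.4 in replicates 2 and 3). Leaving it out therefore makes both the age difference after SCI and the difference of the injury effects smaller. Leaving out aged injured replicate 2 or 3 instead makes both more negative. The spread was wider after SCI, with a coefficient of variation of 51.9% in aged injured and 35.3% in young injured cords, against 9.94% in aged intact and 3.59% in young intact cords. The injured means lay under 50, and a small mean raises this coefficient. The SDs differed less, at 13.5 and 14.0 in aged and young injured cords, against 9.44 and 3.80 in intact cords. In aged injured cords the spread rested on replicate 1.

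Slc5a7, the choline transporter of cholinergic terminals, was near the cutoff in intact cords and far below it in injured cords. Its signal was 0.5, 13.7 and 11.2 in aged injured cords, against 49.2, 28.0 and 38.5 in aged intact cords. In young injured cords it was 5.1, 14.5 and 10.0, against 50.6, 54.7 and 39.1 in young intact cords. The injured arrays did not overlap the intact arrays at either age. In the fit with no cutoff, Slc5a7 was called lower in aged injured than in aged intact cords (adjusted p = 0.0177 from limma), where 26.9% of all genes were called lower. The young injured comparison did not pass (adjusted p = 0.0673), with 21.1% called lower. These calls depend on the arrays used. The aged log2 difference was -3.14 with all arrays and -1.60 without aged injured replicate 1 (adjusted p = 0.00428 from limma). The aged call was lost without aged intact replicate 1 (adjusted p = 0.0559), and the young call was gained without aged injured replicate 1 (adjusted p = 8.51e-05) or without aged injured replicate 2 (adjusted p = 0.0425), since the spread in the fit is estimated from every array together. Without young intact replicate 3, the lowest of that group at 39.1, Slc5a7 passed the cutoff of 50 through the young intact mean alone. Ache and Slc5a7 were then both called lower in aged injured cords. Entry rested on a group where Slc5a7 was high, so no conclusion is drawn from that count. When only the 2 groups compared were fitted, the adjusted p was 0.0721 in aged and 5.91e-04 in young mice.

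Slc18a3, which encodes the vesicular acetylcholine transporter, stayed under 50 on every array. Aged injured cords had 5.1, 18.4 and 8.6, against 33.0, 22.8 and 17.0 in aged intact cords, and replicate 2 of the injured cords lay above replicate 3 of the intact ones. Young injured cords had 8.3, 14.6 and 13.5, against 30.8, 29.5 and 39.8 in young intact cords, with no overlap. It was called lower in aged injured cords (adjusted p = 0.0218 from limma with no cutoff) and in young injured cords (adjusted p = 0.0146). The aged call was lost without aged injured replicate 1 (adjusted p = 0.0795), aged injured replicate 3 (adjusted p = 0.0583) or aged intact replicate 1 (adjusted p = 0.0904), or with only the 2 groups fitted (0.0697). The young call was lost without young injured replicate 1 (adjusted p = 0.0634) or young intact replicate 3 (adjusted p = 0.0544).

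Chat itself, the gene of the synthesizing enzyme, was read at 12.7 or less on every array and passed in no comparison. Its signals were 2.1, 6.0 and 12.7 in aged injured cords, against 5.3, 2.0 and 9.7 in aged intact cords. Young injured cords had 6.9, 11.7 and 9.0, against 6.0, 7.0 and 5.0 in young intact cords. The groups overlapped at both ages, all 12 values were under 50, and the adjusted p with no cutoff was 0.825 in aged and 0.517 in young mice. The aged log2 difference had a 95% confidence interval of -1.26 to 1.68 and the young one of -0.87 to 2.07, and both intervals include 0. The only probe of Chat gave low values in the intact cord, where motor neurons are present, and whether it responds to Chat RNA was not tested.

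Isl1, the homeodomain factor, was read by 2 probes. On the brighter probe aged injured cords had 7.6, 15.1 and 10.8, against 33.1, 34.4 and 30 in aged intact cords, with no overlap. Young injured cords had 3.6, 26.3 and 14.0, against 27.6, 22.3 and 27.3 in young intact cords, and replicate 2 of the injured cords lay within the intact range. With no cutoff Isl1 was called lower in aged injured cords (adjusted p = 0.0313 from limma) and not in young injured cords (adjusted p = 0.0989). The aged call was lost without aged injured replicate 1 (adjusted p = 0.0836), aged injured replicate 3 (0.0668), aged intact replicate 1 (0.0724), aged intact replicate 2 (0.0763) or aged intact replicate 3 (0.0619). The young comparison passed without young injured replicate 2 (adjusted p = 0.0109). Aged intact cords lay above young intact cords on all arrays, but the difference did not pass (adjusted p = 0.976). On the second probe the signals were 1.6, 6.4 and 1.7 in aged injured cords, against 22.2, 8.9 and 7.7 in aged intact cords, and 1.4, 23.0 and 10.3 in young injured cords, against 20.8, 17.9 and 17.7 in young intact cords. Young injured replicate 2 was again the highest injured array. In a fit over all 45101 probes with no cutoff, the aged difference had an adjusted p of 0.0692 on this probe and 0.0333 on the brighter one.

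**Figure D1:**
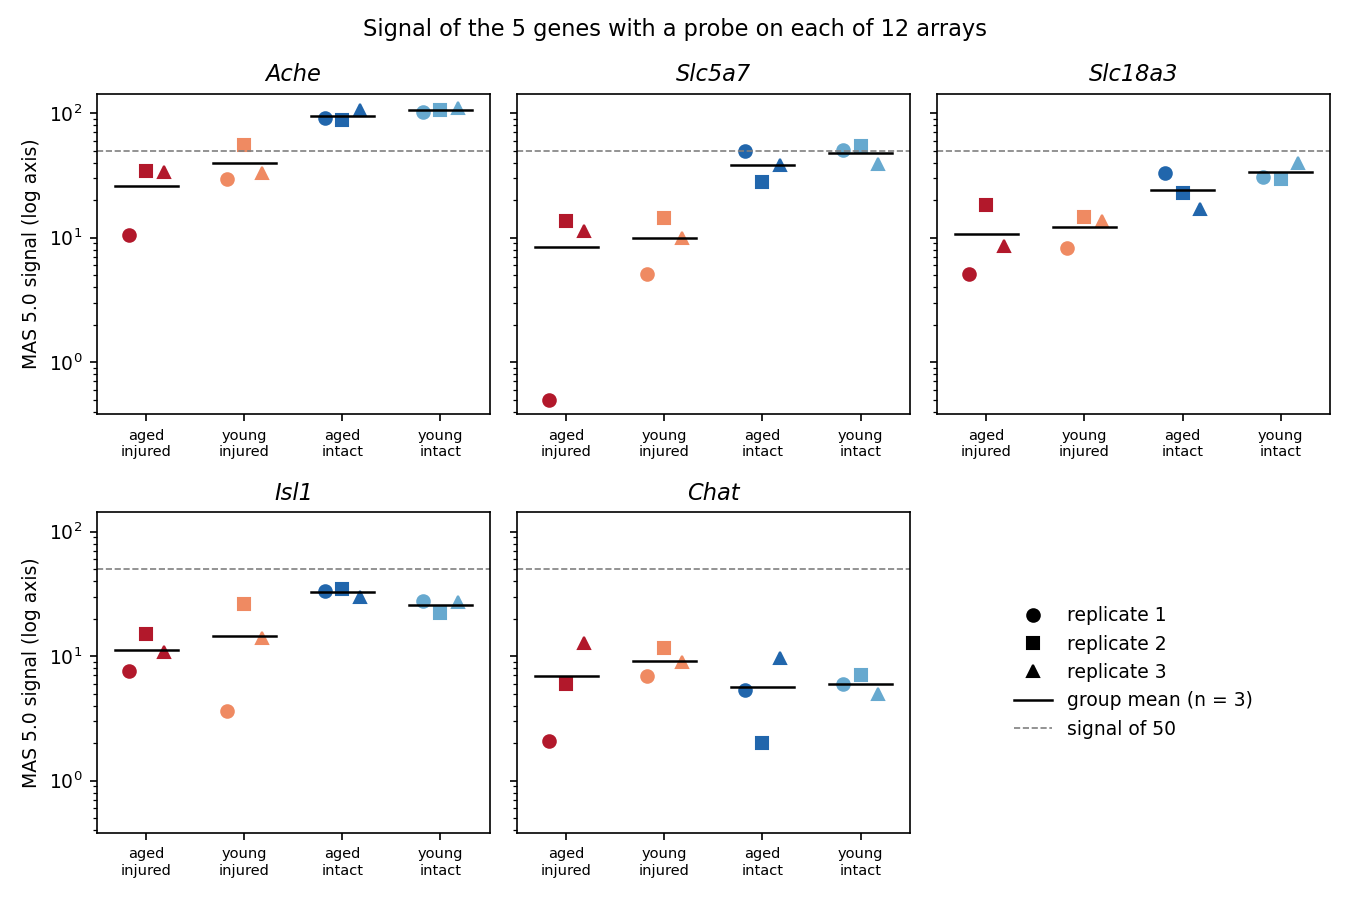
MAS 5.0 signal (log axis) of Ache, Slc5a7, Slc18a3, Isl1 (brighter probe) and Chat on each of the 12 arrays, with a black line at the group mean (n = 3). The dashed line marks the cutoff of 50, the injured arrays of Ache and Slc5a7 lie below all intact arrays, aged injured replicate 1 is the lowest injured array of 4 of the 5 genes, and the 4 groups of Chat overlap.

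Counted together, 1 of the 5 genes passed the cutoff and was called, lower, after SCI at both ages. This gene, Ache, passed through its intact means (94.9 in aged and 106 in young mice), with injured means of 26.0 and 39.5. Entry rested on groups where Ache was high, so no conclusion is drawn from that count. With no cutoff Ache was called as well (adjusted p = 8.03e-04 in aged and 0.00861 in young mice from limma). With no cutoff, 4 of 5 were called lower in aged injured cords, where 26.9% of all genes were, and 2 of 5 in young injured cords, where 21.1% were, with Ache and Slc18a3 lower at both ages. Of the 4 genes below the cutoff, 3 were called lower in aged mice, but 0 without aged intact replicate 1, 1 without aged injured replicate 1 or 3, and 2 without aged intact replicate 2 or 3. In young mice 1 of the 4 was called lower, but 0 without young injured replicate 1 or young intact replicate 3, and 2 without aged injured replicate 1 or 2 or young injured replicate 2. With only the 2 groups fitted, 1 of the 4 was called lower in aged and 2 in young mice. Median centring or quantile normalization also gave 2 in young mice. By overlap of arrays alone, Ache, Slc5a7 and Isl1 had all aged injured arrays below all aged intact ones, which held for 30.6% of the 18194 genes. Ache, Slc5a7 and Slc18a3 had all young injured arrays below all young intact ones, which held for 26.9% of them. None of the 5 was called between aged and young injured cords with no cutoff, where 3.64% of genes were called, between aged and young intact cords (0.44%) or for the difference of the injury effects (0.121%). All 5 means lay under 50 in both injured groups, so none could meet a rule of a ratio above 2 with a mean above 50 in an injured group. Between the 2 injured groups the adjusted p was 0.297 for Ache, 0.546 for Slc5a7, 0.687 for Slc18a3, 0.979 for Isl1 and 0.558 for Chat. The 95% confidence intervals of these log2 differences were wide, at -3.23 to 1.05 for Slc5a7, -1.28 to 0.60 for Slc18a3, -1.25 to 1.19 for Isl1 and -2.20 to 0.74 for Chat.

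The injured arrays differed among themselves in an order that the genes shared in part. Aged injured replicate 1 was the lowest of the 6 injured arrays for Ache, Slc5a7, Slc18a3 and Chat, and young injured replicate 1 was the lowest for Isl1. Young injured replicate 2 was the highest for Ache, Slc5a7 and Isl1, aged injured replicate 2 for Slc18a3 and aged injured replicate 3 for Chat. For Ache the 6 injured signals ran from 10.4 to 55.5 and the 6 intact ones from 88.1 to 109.6. As a share of the intact mean of the same age, the summed signal of the 5 genes was 13.1%, 44.6% and 39.1% in aged injured replicates 1, 2 and 3, and 24.5%, 56.0% and 36.4% in young injured replicates 1, 2 and 3. The summed pan-neuronal signal was 9.67%, 49.3% and 34.1% in the aged injured cords and 35.4%, 53.2% and 47.1% in the young injured cords, so the lowest array and the highest array were the same ones in both sums.

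**Figure D2:**
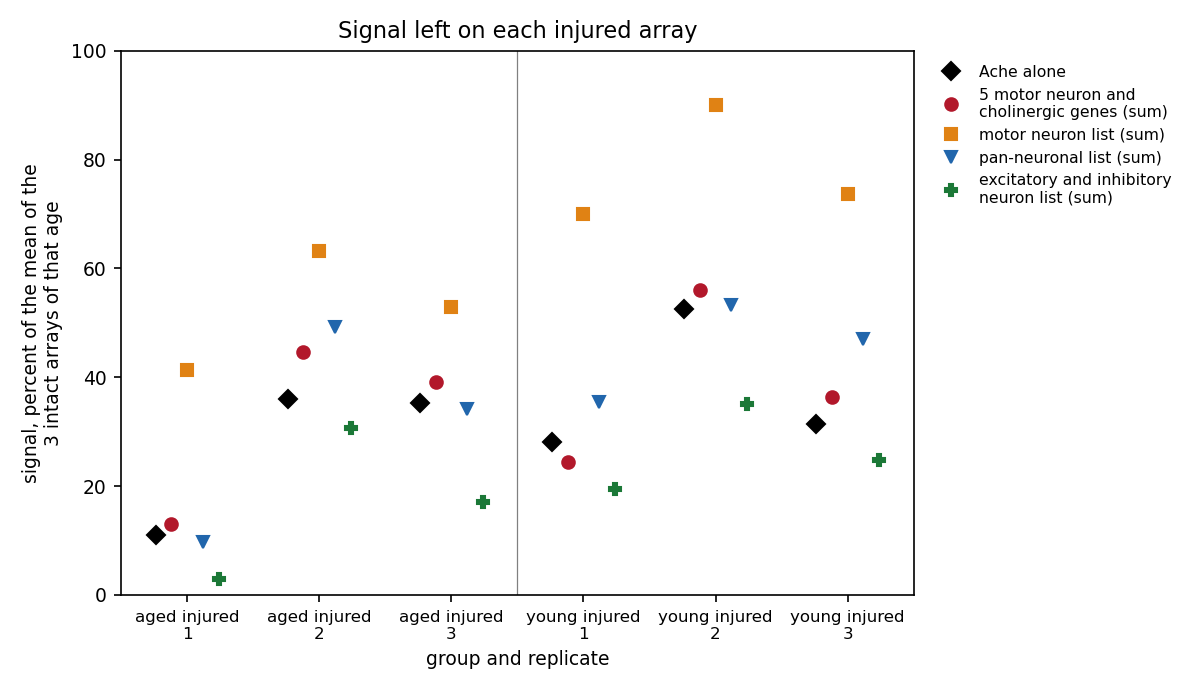
Signal of Ache alone and summed signal of 4 gene lists on each of the 6 injured arrays, as a percent of the mean of the 3 intact arrays of the same age (1 point per array, no error bars). Aged injured replicate 1 is the lowest in all 5 measures, with the summed 5 genes at 13.1% and the pan-neuronal list at 9.67%, and young injured replicate 2 is the highest.

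The genes whose log2 signal followed Ache most closely over the 12 arrays were Kctd4, Kif1a and Sncb, with Pearson correlations of 0.994, 0.994 and 0.993 among the 10511 genes tested. Kif1a encodes a kinesin that carries synaptic vesicle precursors along axons and Sncb encodes beta-synuclein of presynaptic terminals. Kctd4 had a mean signal of 61.2 in aged injured, 86.3 in young injured, 209 in aged intact and 210 in young intact cords. These points share the division into injured and intact arrays, so the correlations mostly repeat that division and carry no test.

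Motor neuron transcription factors and markers other than the 6 genes were called in both directions. Of 19 such genes, 16 had a probe of their own and 10 passed the cutoff. In aged injured cords 7 of the 10 were called lower and 1 higher than in aged intact cords, with a median log2 fold change of -1.87, beside 39.9% of all genes tested called lower and a median of -0.042. The counts were the same and the median was -1.34 without aged injured replicate 1. In young injured cords 3 were called lower and 2 higher than in young intact cords, with a median of -1.07, beside 34.1% of all genes tested called lower and a median of -0.0048. The young count of lower genes became 6 without aged injured replicate 1 or 2 and 5 without young injured replicate 2. The list includes genes used outside motor neurons, and the 6 below the cutoff, among them the homeodomain genes Mnx1, Lhx3 and Lhx4, stayed under 50 on every array. Mnx1 and Lhx4, named after their values were seen, had no overlap between injured and intact arrays at either age. Lhx3 and Vipr2 had no overlap in aged mice alone, and Isl2 and Esrrb overlapped at both ages. Injured arrays all below intact ones held for 30.6% of the 18194 genes in aged and 26.9% in young mice. Mnx1, which keeps motor neurons apart from interneurons in the embryo, had 5.8, 5.3 and 6.5 in aged injured cords, against 29.9, 13.0 and 15.5 in aged intact cords, and 3.0, 7.0 and 5.8 in young injured cords, against 13.7, 15.4 and 17.8 in young intact cords. Lhx4, a LIM homeodomain gene of developing motor neurons, had 2.6, 2.2 and 3.7 in aged injured cords, against 42.6, 30.9 and 18.7 in aged intact cords, and 2.0, 3.5 and 1.5 in young injured cords, against 24.8, 23.3 and 26.6 in young intact cords. With no cutoff, 11 of the 16 were called lower and 1 higher in aged injured cords, where 26.9% of all genes were called lower. In young injured cords 5 were called lower and 2 higher, where 21.1% of all genes were called lower.

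Esrrg, a nuclear receptor gene that marks the motor neurons of muscle spindles, was the clearest of these. Its signal was 22.6, 119.8 and 54.1 in aged injured cords, against 448.1, 416.2 and 437.5 in aged intact cords. It was 70.8, 121.5 and 83.1 in young injured cords, against 411.4, 390.6 and 426.5 in young intact cords. The highest injured array was below the lowest intact array by more than the spread of either group, with a fold of 6.62 in aged mice (log2 fold change -3.04, adjusted p = 1.11e-04 from limma) and 4.46 in young mice (-2.19, adjusted p = 0.00137). Chodl, a membrane protein gene that marks fast motor neurons, had 22.4, 102.0 and 41.4 in aged injured cords, against 350.0, 252.1 and 283.5 in aged intact cords. In young mice it had 55.7, 91.6 and 63.5 in injured cords, against 290.7, 230.3 and 240.6 in intact cords. Chodl was thus 5.34-fold lower in aged (adjusted p = 1.77e-04) and 3.61-fold lower in young injured cords (adjusted p = 0.00251). Cpne4, which encodes a calcium-dependent membrane-binding protein, had 0.5, 21.9 and 12.6 in aged injured cords, against 85.2, 104.7 and 110.6 in aged intact cords, at least 2.00-fold lower (adjusted p = 0.00381). Cpne4 passed the cutoff through its intact groups alone. In young injured cords it had 13.0, 34.6 and 17.2, against 89.0, 86.3 and 113.8 in young intact cords, and this did not pass the test (log2 fold change -2.27, 95% confidence interval -4.64 to 0.097, adjusted p = 0.0809). Nos1, the neuronal nitric oxide synthase found in sympathetic preganglionic and dorsal horn neurons, had 24.9, 41.6 and 64.3 in aged injured cords, against 84.1, 108.1 and 97.8 in aged intact cords (adjusted p = 0.00159). It had 49.5, 67.8 and 62.2 in young injured cords, against 124.7, 113.9 and 111.1 in young intact cords, 1.95-fold lower (adjusted p = 0.00868), a call lost when all probes of the gene were averaged (adjusted p = 0.638). Without aged injured replicate 1 the aged log2 fold changes were -2.43 for Esrrg, -2.17 for Chodl and -2.58 for Cpne4, and all 3 were still called. The other 3 genes lower in aged injured cords, named after their values were seen, were Prph, Ret and Calcb. Prph, the intermediate filament gene peripherin of motor and sensory neurons, had a log2 fold change of -2.64 in aged (adjusted p = 8.48e-04) and -1.17 in young mice (adjusted p = 0.0688), and Ret, the receptor for GDNF-family ligands, of -1.10 (adjusted p = 0.0129) and -0.0065 (adjusted p = 0.987). The aged values were -2.00 for Prph and -0.59 for Ret without aged injured replicate 1.

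Foxp1 and Hspb8 went the other way. Foxp1, a forkhead factor of limb and preganglionic motor neurons that many other cells also express, had 436.1, 290.1 and 324.4 in aged injured cords, against 164.2, 175.5 and 177.6 in aged intact cords, 2.03-fold higher (adjusted p = 2.76e-04 from limma). In young mice it had 399.4, 280.0 and 290.8 in injured cords, against 177.5, 179.4 and 142.8 in intact cords, 1.94-fold higher (adjusted p = 5.73e-04). Its highest values were on aged injured replicate 1 and young injured replicate 1, where Ache was lowest within each group. Without aged injured replicate 1 the aged log2 fold change of Foxp1 was 0.83, against 1.00 with all arrays. Hspb8, a small heat shock protein gene mutated in human motor neuropathies, was the only gene of this list called between the ages after SCI. It had 237.5, 277.7 and 263.9 in aged injured cords, against 451.0, 438.6 and 467.5 in young injured cords, 1.74-fold lower (log2 fold change -0.80, adjusted p = 0.00195, and 0.0583 when only these 2 groups were fitted). Aged intact cords had 301.7, 272.4 and 278.3, against 299.1, 298.2 and 251.4 in young intact cords, which overlap. It was 1.60-fold higher in young injured than in young intact cords (adjusted p = 6.36e-05), while the aged injured cords had a log2 fold change of -0.13 against aged intact cords (95% confidence interval -0.33 to 0.06, adjusted p = 0.194). Between aged and young injured cords, 8 genes of the list were called lower without aged injured replicate 2, against 1 with all arrays. By the study's rule of a ratio above 2 with a mean above 50, Prph and Calcb were lower in aged injured cords. Their means were 42.4 and 49.8, against 113.6 for each in young injured cords. Ret met the rule too with geometric means, and Hspb8 did not meet it. None met it without young injured replicate 2. The share of all genes that met it is not given here.

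**Figure D3:**
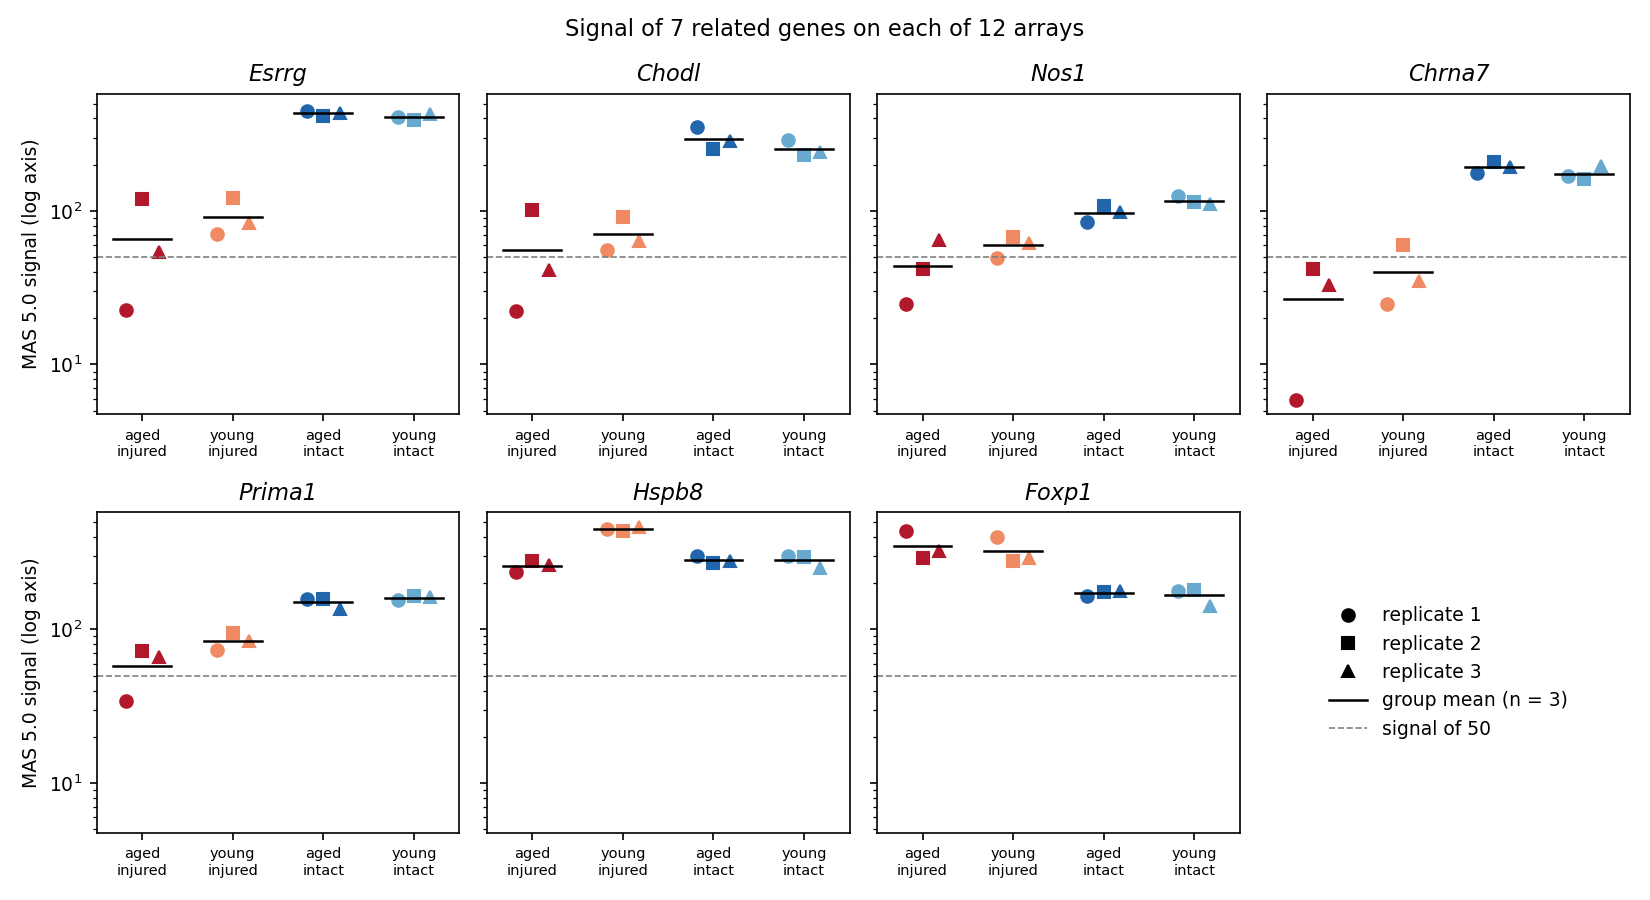
MAS 5.0 signal (log axis) of Esrrg, Chodl, Nos1, Chrna7, Prima1, Hspb8 and Foxp1 on each of the 12 arrays, with a black line at the group mean (n = 3). The dashed line marks the cutoff of 50, injured arrays lie below intact arrays for Esrrg, Chodl, Nos1, Chrna7 and Prima1 and above them for Foxp1, and Hspb8 is raised in young injured cords alone.

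On the receiving side, acetylcholine acts on nicotinic channels and muscarinic G protein-coupled receptors. Of 16 nicotinic receptor subunits, 15 had a probe of their own and only Chrna7 passed the cutoff, through its intact groups alone. With no cutoff, 6 of the 15 were called lower and 0 higher in aged injured cords, where 26.9% of all genes were called lower. In young injured cords 4 were called lower and 1 higher, where 21.1% of all genes were called lower. Chrna7, the subunit of the homomeric alpha7 channel, had 5.9, 42 and 32.8 in aged injured cords, against 176.7, 208.2 and 194.2 in aged intact cords, at least 3.86-fold lower (adjusted p = 4.68e-04 from limma). It had 24.6, 60.0 and 34.8 in young injured cords, against 168.8, 161.0 and 195.5 in young intact cords, at least 3.50-fold lower (adjusted p = 0.00654). Without aged injured replicate 1 the aged log2 fold change was -2.38, against -3.26 with all arrays. The young call was lost when all probes of the gene were averaged (adjusted p = 0.157). The muscle-type subunit genes Chrna1, Chrnd, Chrne and Chrng had signals of 9.8 or less on every array. Chrnb1, also of the muscle type, read higher in injured cords, though under 50 on every array. It had 10.2, 17.3 and 14.0 in aged injured cords, against 4.1, 4.0 and 11.9 in aged intact cords. In young mice it had 20.5, 16.8 and 17.0 in injured cords, against 8.4, 9.5 and 3.0 in intact cords. Of 5 muscarinic receptor genes, 3 had a probe and none passed the cutoff.

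Genes of acetylcholine breakdown and choline supply were called in both directions, at shares near those of all genes tested. Of 15, 13 had a probe and 8 passed the cutoff. Of these 8, 3 were lower and 2 higher in aged injured cords, and 3 were lower and 3 higher in young injured cords. Over all genes tested, 39.9% were called lower and 35.6% higher in aged mice, and 34.1% and 33.9% in young mice. The medians were -0.054 in aged and 0.072 in young mice, beside -0.042 and -0.0048 over all genes tested, and the aged median was 0.082 without aged injured replicate 1. Prima1, which anchors ACHE in the membrane of neurons, was lower together with Ache. It had 34.0, 72.7 and 66.6 in aged injured cords, against 158.6, 158.4 and 135.8 in aged intact cords, 2.61-fold lower (adjusted p = 1.94e-04 from limma). In young mice it had 73.5, 94.9 and 83.9 in injured cords, against 155.6, 165.0 and 162.4 in intact cords, 1.91-fold lower (adjusted p = 0.00431). Lynx1, a membrane-tethered modulator of nicotinic receptors, was 3.72-fold lower in aged injured cords (264 ± 126 against 982 ± 58.6 in aged intact cords, SD, n = 3 each) and 2.62-fold lower in young injured cords (395 ± 44.7 against 1033 ± 40.7 in young intact cords). Bche, the second cholinesterase, averaged 33.6 ± 8.70 in aged injured and 57.2 ± 1.72 in aged intact cords (SD, n = 3 each), at least 1.14-fold lower. It averaged 50.6 ± 9.83 in young injured and 73.4 ± 2.12 in young intact cords, 1.45-fold lower. This young call was lost without young injured replicates 1 or 3 or young intact replicates 1 or 2 (adjusted p = 0.0521 to 0.0742 from limma). It was also lost with all probes averaged (0.0754). Without aged injured replicate 1, the aged log2 fold changes of Prima1, Lynx1 and Bche were -1.11, -1.55 and -0.62. With all arrays they were -1.46, -2.04 and -0.80.

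Slc44a2, a choline transporter-like gene expressed widely outside neurons, was higher after SCI. It had 459.1, 295.7 and 353.6 in aged injured cords, against 110.4, 117.7 and 113.7 in aged intact cords, 3.24-fold higher (adjusted p = 1.07e-06 from limma). It had 302.4, 294.8 and 289.7 in young injured cords, against 92.9, 91.1 and 99.1 in young intact cords, 3.13-fold higher (adjusted p = 1.60e-06). Chkb, a choline kinase gene of phospholipid synthesis, was 1.26-fold higher in aged and 1.46-fold higher in young injured cords, and the aged call was lost without aged injured replicate 1 (adjusted p = 0.0713). Agrn, whose product clusters receptors at the neuromuscular junction and is also made in basement membranes, was 1.76-fold higher in young injured cords (adjusted p = 0.00103), a call lost when all probes of the gene were averaged (adjusted p = 0.753). No gene of this list was called between aged and young injured cords, and 4 were lower and 1 higher without aged injured replicate 2.

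**Figure D4:**
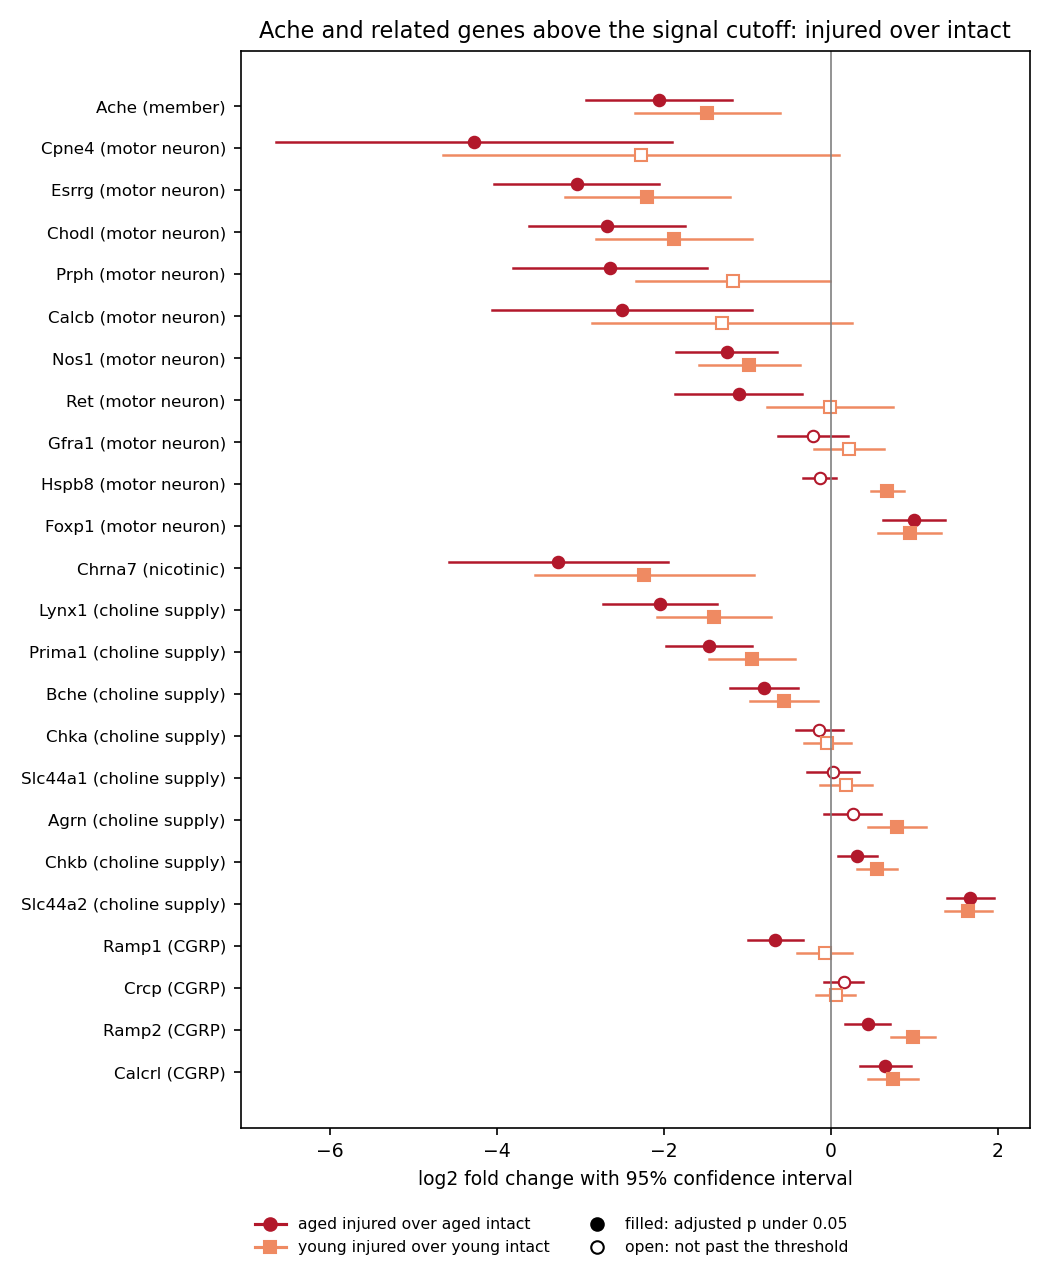
Log2 fold change with 95% confidence interval (limma) of Ache and of the genes above the signal cutoff in the motor neuron, nicotinic, choline supply and CGRP lists, for aged injured over aged intact cords (circles) and young injured over young intact cords (squares). Filled symbols passed the test, and Ache (-2.05 and -1.48) lies among the genes that fell while Slc44a2 (1.67 and 1.65) and Foxp1 (1.00 and 0.95) lie on the other side of 0.

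Calca itself had no probe annotated to it alone, but Calcb, which encodes a separate CGRP peptide, and the genes of the CGRP receptor did. Of 9 genes of this list, all had a probe and 5 passed the cutoff. Of these 5, 2 were lower and 2 higher in aged injured cords, and 0 were lower and 2 higher in young injured cords. Beside them, 39.9% of all genes tested were called lower and 35.6% higher in aged mice, and 34.1% and 33.9% in young mice. The young count of lower genes was 1 without aged injured replicate 1 or 2 or young injured replicate 2. Calcb, the gene of beta-CGRP, which is also in the motor neuron list, had 12.9, 106.0 and 30.5 in aged injured cords, against 265.7, 152.8 and 186.6 in aged intact cords, at least 4.03-fold lower (log2 fold change -2.50, adjusted p = 0.00741 from limma). The log2 fold change was -1.79 without aged injured replicate 1. It had 56.0, 231.1 and 53.7 in young injured cords, against 258.7, 236.2 and 171.3 in young intact cords, which overlap (adjusted p = 0.122). The genes of the CGRP receptor did not move together. Calcrl, the receptor itself, was 1.58-fold higher in aged and 1.68-fold higher in young injured cords, calls that were lost when all its probes were averaged (adjusted p = 0.0720 and 0.542). Ramp1, the partner that makes it a CGRP receptor, averaged 632 ± 147 in aged injured, 1008 ± 81.5 in young injured and 982 ± 80.9 in aged intact cords (SD, n = 3 each), and was called lower in aged injured cords against both (adjusted p = 0.0212 against young injured and 0.00195 against aged intact). Ramp2, the partner that makes it an adrenomedullin receptor, averaged 138 ± 12.1 in aged injured and 217 ± 29.8 in young injured cords, 1.57-fold lower (adjusted p = 0.0153), and was higher after SCI at both ages. The call of Ramp1 between the ages was lost without young injured replicate 1 (adjusted p = 0.0570), 2 (0.0525) or 3 (0.0663), or with all its probes averaged (0.115), and both calls were lost when only these 2 groups were fitted.

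Genes of neurons in general were also low after SCI. The share called lower over all genes tested was 39.9% in aged and 34.1% in young mice. Of 18 pan-neuronal genes, 17 were called lower in aged injured cords and 11 in young injured cords, with median log2 fold changes of -2.01 and -1.31, led by Ina, Rbfox3 and Elavl4 at -3.34, -3.30 and -3.04 in aged mice. Without aged injured replicate 1 17 were again called, but the median was -1.35 and Ina, Rbfox3 and Elavl4 were at -2.28, -2.41 and -2.20. The young count was 17 without aged injured replicate 1, 6 without young injured replicate 1, and 7 without young intact replicate 1 or 3. Of 5 genes of excitatory and inhibitory neurons above the cutoff, all 5 were lower at both ages, led by Slc32a1, the vesicular transporter of inhibitory terminals (-3.54 in aged and -2.60 in young mice, calls that were lost with all probes averaged, at adjusted p = 0.397 and 0.210). Slc32a1 was at -2.63 in aged mice without aged injured replicate 1. The young count was 2 without young injured replicate 1 and 3 without young injured replicate 3 or any 1 of the young intact replicates. Of 8 dorsal horn peptide genes above the cutoff, 7 were lower and 1, Npy, was higher in aged injured cords, and 3 were lower and 1 higher in young injured cords. The aged count of lower genes was 4 when only the 2 groups were fitted. The young counts were 5 lower without aged injured replicate 1, 2 lower and 0 higher without young injured replicate 1 or 3, and 0 higher without young intact replicate 1 or 2. No gene of these 3 lists was called between aged and young injured cords, but without aged injured replicate 2 the counts of lower genes were 13, 4 and 5. Whether Ache fell more or less than neuronal genes as a whole was not tested.

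Markers of other cells moved with injury too. The shares over all genes tested were 39.9% lower and 35.6% higher in aged mice, and 34.1% and 33.9% in young mice. All 10 macrophage and microglia markers passed the cutoff and 9 were called higher at both ages, and their summed signal ranged from 20815 to 23200 in aged injured and from 3123 to 3464 in aged intact cords, and from 16350 to 21332 in young injured and from 1915 to 2133 in young intact cords. Of 7 sensory neuron markers with a probe, 1 passed the cutoff, and the summed signal was 52.1 to 96.9 in aged injured, 70.4 to 275 in young injured, 140 to 158 in aged intact and 132 to 141 in young intact cords. The highest sum was that of young injured replicate 2, which was also the highest injured array for Ache, Slc5a7, Isl1 and Calcb. Of 4 Schwann cell markers with a probe, 2 passed the cutoff, with sums of 217 to 232 in aged injured, 287 to 367 in young injured, 232 to 282 in aged intact and 232 to 271 in young intact cords. Of 6 astrocyte markers, 3 were called lower in aged injured than in aged intact cords and 2 higher in young injured than in young intact cords, and the aged count was 3 lower and 3 higher without aged injured replicate 1. Of 5 oligodendrocyte markers with a probe, 3 were called lower in aged injured cords, and 1 was without aged injured replicate 1 or any 1 of the aged intact replicates. Their summed signals in aged injured replicate 1 were 62.1% and 77.3% of the aged intact mean, against 94.7% or more in the other aged injured replicates. Of 6 skeletal muscle markers 1 passed the cutoff, and their summed signal was 61.7 to 131 in aged injured, 128 to 298 in young injured, 65.2 to 237 in aged intact and 188 to 253 in young intact cords. The part of these cells in the results above was not tested. Thoracic spinal cord markers were present, with 5 of 6 genes read and all 5 above the cutoff, among them Hoxc8 and the glycine transporter gene Slc6a5. They were also lower after SCI, with 4 of the 5 called lower at both ages. The young count was 2 without young injured replicate 3 or young intact replicate 1 or 2. Their summed signal was 27.8% to 48.7% of the intact mean in aged injured and 45.0% to 54.4% in young injured cords.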

How the data were processed

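The 12 arrays were 3 mice for each of 4 groups, grouped by the sample labels. The authors hybridized total RNA of each mouse and obtained probe values with MAS 5.0, and the deposited values are linear signal intensities, 1 per probe, with no detection calls in the table used. Depth has no meaning for arrays, and their number limits the precision. Probes were paired with genes through the platform annotation: 34958 of 45101 with 1 gene, 932 with several and 9211 with none. Per gene the probe of highest mean was kept. Log2 signals were fitted with limma 3.58.1 in R 4.3.3, with 1 mean per group over all 12 arrays, a trend in the spread and Benjamini-Hochberg adjustment over 10511 genes with a mean above 50 in at least 1 group. The fit was checked on simulated data with normal noise, independent between genes, and 1 spread per gene that was equal in all groups. That check does not cover the unequal spread of the groups here or an array that stands apart. A fold is "at least" where a group mean under 50 was set to 50, and none is given where both lie under 50. The labels number the samples of each group, and the authors' methods give 3 mice per group. The p-values rest on 1 spread per gene, pooled over the 4 groups. They do not measure the spread of the 2 groups compared alone.

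The text names the 6 members, up to 3 called genes per list, direction and comparison with the largest log2 fold change, and the 3 genes most like Ache. Members and lists were chosen with earlier results of these data known. Alternatives were quantile normalization, median centring, a floor at 50, no trend in the spread, only the 2 groups compared, the mean of all probes, a replicate block, no cutoff, and leaving out each array. Promoter letters are from RefSeq.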

Additional observations from a re-analysis of the deposited data

Results flagged for a closer look

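Hspb8 differed between the ages in its response to SCI. The injury effect in aged mice minus that in young mice was -0.81 on the log2 scale (adjusted p = 0.0247 from limma), and it is given here because the effects at the 2 ages were tested against each other and differed. The aged injured cords had 260 ± 20.4 and the aged intact cords 284 ± 15.5, and the young injured cords had 452 ± 14.5 and the young intact cords 283 ± 27.3 (SD, n = 3 each). The value was -0.64 (adjusted p = 0.0908) with all probes averaged. It kept its sign with each array left out, from -0.86 to -0.73, but the call was lost for 8 of the 12 arrays (adjusted p = 0.0540 to 0.0889), namely aged injured replicate 3, aged intact replicates 1, 2 and 3, young injured replicates 1 and 3 and young intact replicates 2 and 3.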

How the results depend on the processing

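The calls of Ache after SCI held under every alternative run, with log2 fold changes of -2.34 to -0.92 in aged and -1.75 to -1.03 in young mice. With no cutoff, 4 members were called lower in aged and 2 in young injured cords, against 1 and 1 with it, and with the cutoff and 1 array left out 1 to 2 in aged mice. For aged against young injured cords, 945 genes were called, 565 with all probes averaged, 0 with only these 2 groups fitted (1974 at an unadjusted p under 0.05, limma) and, with 1 array left out, 296 (young injured replicate 2) to 3074 (aged injured replicate 2). For aged against young intact cords, 85 were called, 55 with all probes averaged, 494 with only these 2 groups fitted and, with 1 array left out, 33 (young intact replicate 3) to 216 (aged injured replicate 1). For the difference of the injury effects, 46 were called, 28 with median centring, 22 with no cutoff, 27 with no trend, 99 with a floor at 50 and, with 1 array left out, 7 (aged intact replicate 2, young injured replicate 1 or young intact replicate 2) to 526 (aged injured replicate 2). A floor at 50 turned the Ache difference of the injury effects to 0.11 and that of Slc5a7 to 0.049; where it put all arrays compared at 50, it gave no value.

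Below the cutoff, uncalled log2 differences changed sign. For Isl1, aged against young injured cords gave 0.071 with median centring and 0.061 with quantile normalization, and aged against young intact cords -0.18 with both probes averaged. With 1 array left out, aged against young injured cords ran from -1.93 to 0.45 for Slc5a7, -0.83 to 0.094 for Slc18a3 and -0.84 to 0.60 for Isl1. The difference of the injury effects ran from -1.0 to 0.30 for Chat, -1.59 to 0.80 for Slc5a7, -0.33 to 0.59 for Slc18a3 and -1.18 to 0.26 for Isl1. Chat ran from -0.87 to 0.27 between aged and young intact cords and from -0.40 to 0.90 between aged injured and aged intact cords. The causes were not tested.

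Deviations of same-numbered arrays had correlations of -0.11 to 0.67. Only 2 of 18 were over 0.1, both between aged and young injured arrays (0.60 for replicate 1 and 0.67 for replicate 2, beside 0.015 for replicate 3), so the numbers were not taken to pair the mice. With the replicate block, 22 genes were called for the difference of the injury effects, Hspb8 no longer among them (adjusted p = 0.0600), and Ache was at -2.05 (adjusted p = 4.67e-04) in aged and -1.48 (adjusted p = 0.00410) in young mice. Between aged and young injured cords 1 gene of the choline supply list was then called lower. Signals under 50, which are 4 of the 5 genes measured, limit what these arrays can show.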
